A study of Homo sapiens with 12 samples.

Results

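TGF-beta and BMP signals are carried by secreted ligands that bind pairs of type I and type II receptor kinases, which phosphorylate SMAD transcription factors. Nuclear corepressors such as SKI, SKIL and TGIF1 hold back SMAD-dependent transcription, and SMAD7 blocks signalling at the receptor. In the colon TGF-beta restrains epithelial growth, and many colorectal cancers lose part of the pathway. MicroRNAs reach the mRNAs of this pathway as guides of Argonaute proteins, which pair them mostly with sites in 3' UTRs.

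The members described here are 7 genes of this pathway, SKI, SKIL, TGIF1, BMP4, ACVR2B, TGFBR2 and SMAD7, and the AGO2-bound regions that overlap their RefSeq spans on the gene's strand by at least 1 base. These genes held 26 regions, 17 of the 2921 in the list for mutant AGO2 (5xA) and 9 of the 1190 in the list for wild-type AGO2 (WT). SKI held 15 of them, and SKIL and SMAD7 held none. A region with 5xA was held by 4 members and a region with WT by 5, beside 7.45% and 3.35% of all 20037 protein-coding genes. Both lists held a region of 4 members (SKI, TGIF1, BMP4 and ACVR2B), beside 2.99% of those genes, and TGFBR2 held a region with WT only. The genes were chosen by the number, position and sharing of their regions in these same lists, so nothing is read from these shares, and the numbers, positions and sharing below are a description without a test.

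The regions come from eCLIP, in which RNA is crosslinked to a protein by ultraviolet light, precipitated with it and sequenced. The cells were HCT116, a human colorectal carcinoma line, grown for 48 h and irradiated at 400 mJ/cm2. The groups used are FH-AGO2_5xA, with a form of AGO2 that carries alanines in place of a cluster of phosphorylated residues, and FH-AGO2_WT, both precipitated with an anti-FLAG antibody (2 IP samples each). The series also has AGO2_KO cells and an input for each genotype, which were not analysed here. How FH-AGO2 was expressed, from which promoter, and whether each line is a clone was not given in the labels. HCT116 cells are known for defective mismatch repair and for lacking a functional type II TGF-beta receptor.

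Each genotype is represented by 1 list, which the labels give for both of its IP samples, so no spread between samples could be set against any difference, and the read depth behind a region is unknown. The whole 5xA list outnumbered the whole WT list by a ratio of 2.45. A longer list holds more regions per gene on average, whatever the reason for its length, which was not tested. Each comparison of numbers below carries this difference in length. The ratio of 2.45 also counts regions of protein-coding genes found in 1 list only, 892 genes with 5xA and 72 with WT. It is therefore no yardstick for a gene with regions in both lists, and a ratio over such genes was not determined. Of 10 markers each, 2 epithelial genes held a region with 5xA and 1 with WT (CLDN4 in both lists and VIL1), 1 fibroblast gene (COL1A1) did in both lists, and 0 blood cell genes did. A region shows bound RNA and not the level of an mRNA, so these counts say little about the label of the cells.

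SKI had the most regions of the pathway. SKI, the corepressor that binds SMAD complexes on DNA, held 11 regions with 5xA and 4 with WT, a ratio of 2.75. Its span lies on chromosome 1 from 2228319 to 2310213 (hg38, plus strand), and each of the 15 regions lay in its final 3600 bases. Of 20037 protein-coding genes, 7 (0.0349%) held 11 or more 5xA regions and 4 held more than SKI did, while 41 (0.205%) held 4 or more WT regions and 29 held more than SKI did. Genes beside it in number were ZC3HAV1L (11 with 5xA and 7 with WT) and ZBTB20 (11 and 3), with ANKRD52 (12 and 10) next above. The genes next below, with 10 5xA regions, were KDM6B, MIDN, MKNK2, MTCL2, NACC1 and ZBTB34, with 3 to 9 WT regions.

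**Figure D1:**
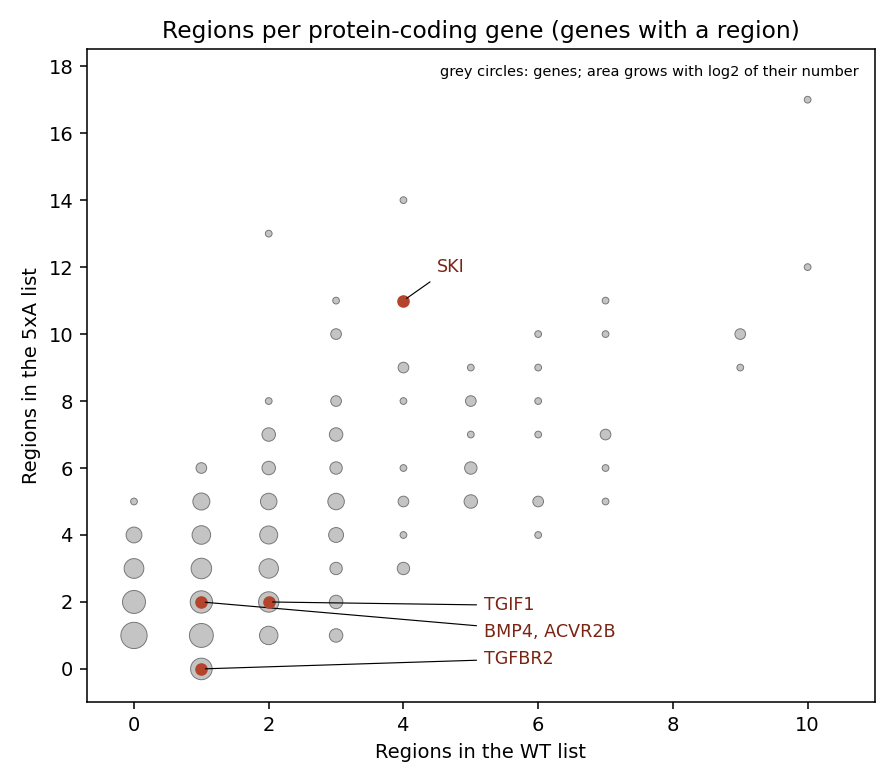
Number of regions in the 5xA list (vertical axis) and in the WT list (horizontal axis) for each protein-coding gene with a region. Grey circles stand for genes, with an area that grows with the log2 of their number, and red points mark the members with a region. SKI stands at 11 and 4, while BMP4 and ACVR2B (2 and 1), TGIF1 (2 and 2) and TGFBR2 (0 and 1) lie among most other genes.

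The 5xA regions of SKI began 3600 bases before the downstream gene end. A first run of 4 regions lay at 2306613 to 2306752, 2306771 to 2306899, 2306938 to 2307036 and 2307069 to 2307193, and none of them met a WT region. Toward the gene end followed regions at 2307273 to 2307493, 2307767 to 2308025 and 2308027 to 2308145. The last were at 2308678 to 2309014, 2309030 to 2309212, 2309216 to 2309278 and 2309954 to 2310043. These positions fill 1765 bases, 51.4% of the stretch of 3431 bases from the first to the last. The 4 WT regions lay at 2307278 to 2307407, 2307770 to 2307981, 2308784 to 2308914 and 2309959 to 2310049, and they fill 564 bases. Each of the 4 WT regions overlapped a single 5xA region, and 3 of them lay wholly inside it. The WT list thus held no SKI region at a place that the 5xA list lacked.

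**Figure D2:**
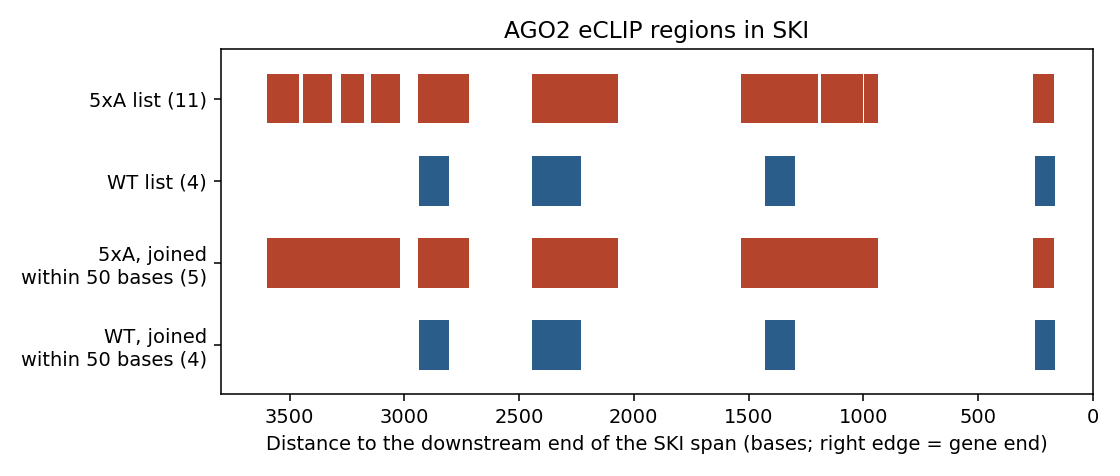
Regions of SKI drawn to scale by distance to the downstream end of the gene span (bases, the gene end at the right). The upper rows are the regions as deposited, 11 with 5xA and 4 with WT, and the lower rows the same after joining regions of 1 list within 50 bases, 5 with 5xA and 4 with WT.

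The count of 11 depends on how closely spaced regions are counted. The 10 gaps between neighbouring 5xA regions of SKI measured 1 to 675 bases with a median of 35, and 6 of them were 50 bases or less. The 3 gaps between WT regions measured 362 to 1044 bases. When regions of a list within 50 bases of each other were joined, SKI held 5 regions with 5xA and 4 with WT. The 4 regions of the first run became 1 of 581 bases (2306613 to 2307193), the only joined 5xA region of SKI without a WT counterpart. Joining within 20 bases gave 7 with 5xA, and joining within 100 bases gave 4, which is the WT number. After joining within 50 bases, 30 protein-coding genes held more 5xA regions than SKI, where 4 did before. Over the whole 5xA list 90.3% of the number of regions was left, and SKI kept 45.5% of its number. Among the 25 genes with 8 or more 5xA regions this share ranged from 44.4% in PKD1 to 100%, with a median of 75.0%. By the bases covered by the deposited regions, 17 genes exceeded SKI with 5xA and 50 did with WT. The ratio of covered bases in SKI was 3.13.

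In SKI 3 of the 4 shared 5xA regions, at 221, 259 and 337 bases, were wider than each of the 7 without a WT region, which measured 63 to 183 bases (median 125). The other shared region, the one nearest to the gene end, was 90 bases wide, less than 6 of those 7. Over the whole 5xA list the medians were 145 bases for shared regions and 93 bases for the rest. The 7 unmatched regions lay 45 to 525 bases from the nearest WT region. The first run of 4 lay upstream of all WT regions, which began 2935 bases before the gene end, and the others lay between WT regions.

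Matched regions were compared by their edges. In SKI the upstream edges of the 5xA regions reached 5, 3, 106 and 5 bases further out than those of the WT regions, in order along the gene. The downstream edges reached 86, 44 and 100 bases further, and in the last pair, where the 5xA region was 90 and the WT region 91 bases wide, 6 bases less far. In 3 of 4 pairs the upstream edges thus stood within 10 bases of each other, and in 1 pair the downstream edges did. Over all 847 pairs in which a 5xA and a WT region overlapped each other alone, 45.8% of upstream and 45.9% of downstream edges stood within 10 bases, with a median distance of 12 bases on both sides. The 5xA region was the wider one in 566 of the 847 pairs, and in 3 of the 4 pairs of SKI. In the ACVR2B pair the 5xA region reached 65 bases further out upstream. Its downstream edge stood at -48 bases relative to that of the WT region.

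**Figure D3:**
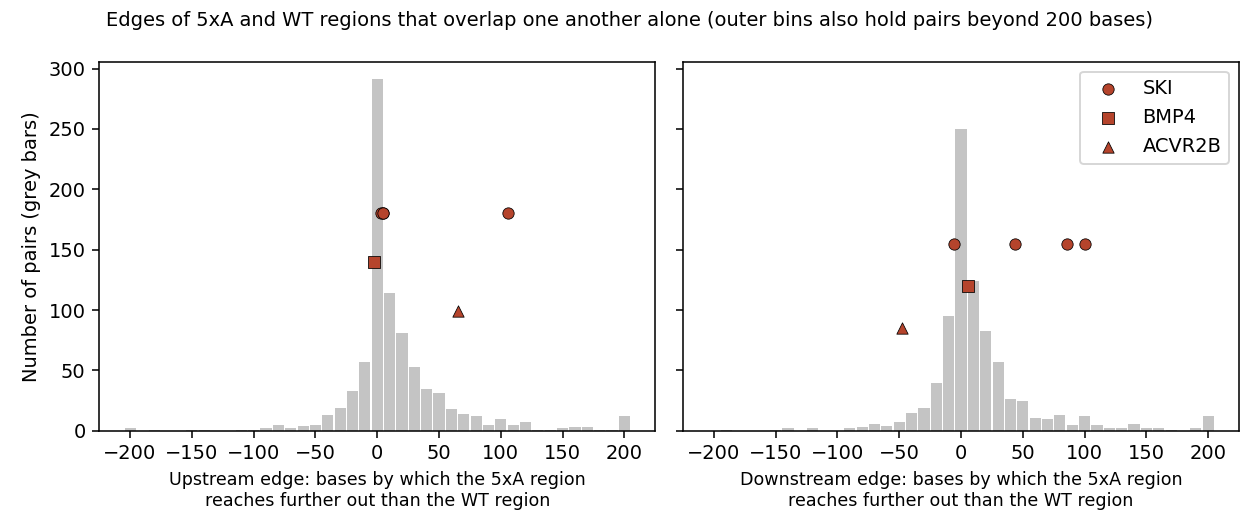
Bases by which the 5xA region reaches further out than its WT partner at the upstream edge (left panel) and the downstream edge (right panel). Grey bars count all 847 pairs in bins of 10 bases, and red symbols mark the pairs of SKI (4, of which 3 coincide near 0 at the upstream edge), BMP4 (1) and ACVR2B (1) at heights chosen for display.

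TGIF1, a homeodomain corepressor of SMAD proteins and of retinoid signalling, held 2 regions in each list. Its span runs from 3412009 to 3459978 on the plus strand of chromosome 18. The 5xA regions lay at 3458051 to 3458134 and 3458154 to 3458323, and the WT regions at 3457520 to 3457593 and 3458127 to 3458349. Both 5xA regions met the second WT region, one by 8 bases and the other with all of its 170 bases. The first WT region, 74 bases wide, lay 457 bases from the nearest 5xA region. TGIF1 is therefore a gene with equal numbers and a WT region of its own, and it covered 254 bases with 5xA and 297 bases with WT. Joining within 50 bases left 1 region with 5xA and 2 with WT.

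SKIL, which encodes the SKI relative SnoN, held 0 regions with 5xA and 0 with WT. Its span is 170357715 to 170396849 on chromosome 3, and no region lay on its other strand either. The nearest region on its strand was 2001299 bases away in the 5xA list and 10579776 bases away in the WT list. SKI and its relative thus stand at the opposite ends of the members. The mRNA level of SKIL and the depth of the libraries were not measured here, and a count of 0 does not show that AGO2 did not bind it.

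BMP4, a secreted ligand of the BMP branch, held 2 regions with 5xA and 1 with WT. The gene lies on the minus strand of chromosome 14 from 53949736 to 53956891. A 5xA region at 53950349 to 53950557 and the WT region at 53950355 to 53950560 shared 203 bases. Their edges differed by 3 bases upstream and 6 bases downstream. The other 5xA region, 257 bases at 53949803 to 53950059, reached to 67 bases from the downstream gene end and lay 295 bases from the WT region. BMP4 covered 466 bases with 5xA and 206 bases with WT.

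ACVR2B, a type II receptor for activins and related ligands, also held 2 regions with 5xA and 1 with WT. In its span on the plus strand of chromosome 3 (38453890 to 38493142), the 5xA regions lay at 38484738 to 38484897 and 38485079 to 38485158. The WT region at 38484803 to 38484945 shared 95 bases with the first and lay 133 bases from the second. Unlike the other members with a region, ACVR2B held its regions 8024 to 8325 bases before the downstream gene end, at 78.8% to 79.6% of the length of the gene. The gene table gives spans and no exons, so whether this is 3' UTR was not determined.

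TGFBR2, the type II receptor for TGF-beta itself, held 0 regions with 5xA and 1 with WT. Its span is 30606356 to 30694142 on the plus strand of chromosome 3. The WT region, at 30691816 to 30691883, was 68 bases wide against a median of 114 bases for the WT list and lay 2293 bases before the downstream gene end. The nearest 5xA region on that strand was 7561233 bases away. Of all protein-coding genes, 72 (0.359%) held a region in the WT list only, and 892 (4.45%) in the 5xA list only. Leaving out regions under 75 bases removed the region of TGFBR2 and the narrow WT region of TGIF1, and each of the 7 WT regions of the members that remained met a 5xA region.

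**Figure D4:**
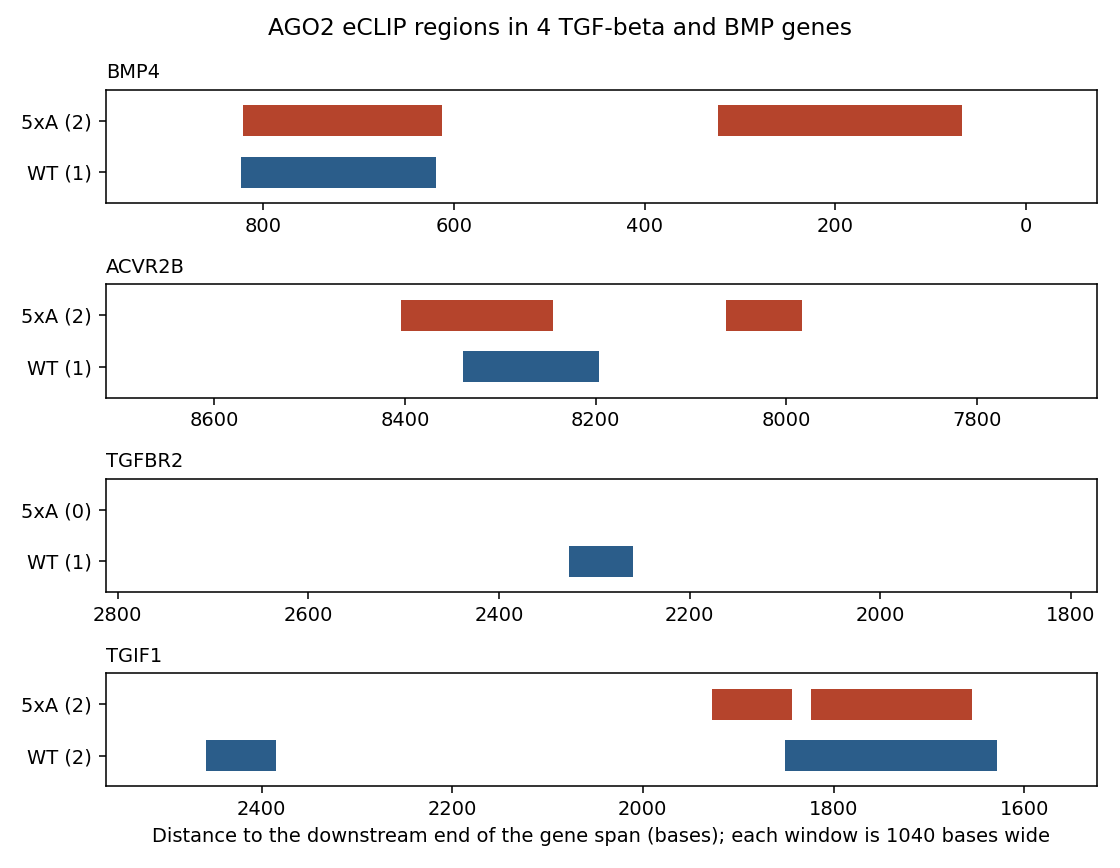
Regions of BMP4, ACVR2B, TGFBR2 and TGIF1 by distance to the downstream end of the gene span (bases, transcription from left to right), 5xA above WT in each panel. The windows have equal width, and BMP4, ACVR2B and TGIF1 each show an overlap of a 5xA and a WT region, while TGFBR2 has a WT region alone.

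SMAD7, the inhibitory SMAD that brings ubiquitin ligases to the receptors, held 0 regions in both lists. Its span is 48919853 to 48950965 on the minus strand of chromosome 18. The nearest region on that strand was 1324085 bases away with 5xA and 1324098 bases with WT.

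Some microRNAs that other work has reported to act on these receptors and SMADs had regions at their own genes. A region of each list covered the whole mature sequence of 25 microRNAs at 20 microRNA genes. The following are shown because miR-106b and miR-93 have been reported to target TGFBR2, miR-21 both TGFBR2 and SMAD7, and let-7 the type I receptor TGFBR1. The capitals mark the seed, bases 2 to 8, which pairs with the target.
miR-106b-5p: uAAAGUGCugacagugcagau
miR-93-5p: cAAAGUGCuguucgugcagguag
miR-21-5p: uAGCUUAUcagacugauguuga
let-7a-5p: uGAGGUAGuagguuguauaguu
miR-106b-5p (chromosome 7, 100094043 to 100094063, minus strand) and miR-93-5p (100093815 to 100093837, minus strand) share a seed, whose match in an mRNA reads GCACUUU. miR-21-5p lies on chromosome 17 (59841273 to 59841294, plus strand) and its seed match reads AUAAGCU. For let-7a-5p the 3 genes MIRLET7A1, MIRLET7A2 and MIRLET7A3, on chromosomes 9, 11 and 22, had a region in both lists, and the seed match reads CUACCUC. The mature let-7a-5p sequence is the same at its 3 genes, so a read of it alone cannot be assigned to 1 of them. Whether the regions at these 3 genes rest on the same reads was not tested. Regions at the genes of these microRNAs were in both lists. SMAD7 and TGFBR1 held no region in either list, and TGFBR2 held the single narrow one. The microRNAs shown were picked from the 25 for their reported targets, and the share of all microRNA genes with such regions was not determined. Whether they bind these mRNAs in these cells was not tested, so nothing is read from setting the microRNAs beside the receptors and SMAD7. The sequence under the regions of the members was not used here, so which of these letters they hold was not determined.

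Most regions of the members lay near the downstream end of their genes, the side of the 3' UTR, as did most regions of all genes over 10 kb. Position was among the values that chose the members, and most of their regions are those of SKI, so nothing is read from the shares below. Within 5 kb of the downstream end lay 15 of 17 5xA regions and 8 of 9 WT regions, and the exceptions were those of ACVR2B. In members longer than 10 kb, which leaves out BMP4, 13 of 15 5xA and 7 of 8 WT regions did, beside 78.0% and 79.9% of all regions in protein-coding genes of that length. The median distance in these members was 2317 bases with 5xA and 2315.5 bases with WT, and 1765 and 1661 bases over all such genes. With BMP4 the members' medians were 2127 and 2293 bases. In SKI the stretch from the first to the last 5xA region was 3431 bases. Over the 25 genes with 8 or more 5xA regions the median stretch was 8938 bases. In 6 of the 25, SKI among them, it was at most 3431 bases. These stretches are genomic and can include introns, and number and position were among the values that chose SKI. Nothing is therefore read from this comparison either. None of the 11 regions of the members other than SKI met a window of 300 bases around a start of its own gene (250 before it and 50 after). Over the whole lists 1.51% of 5xA and 1.01% of WT regions met such a window of some gene, so 11 regions are too few to show a difference. SKI has no entry among these windows.

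Leaving out SKI changed both shares of the members' regions found in both lists, and joining close regions changed the 5xA share only. Of their 17 5xA regions 8 overlapped a WT region (47.1%, exact 95% interval 23.0 to 72.2), beside 32.3% of the whole list. Of their 9 WT regions 7 overlapped a 5xA region (77.8%, 40.0 to 97.2), beside 81.3%. Regions of 1 gene are not independent, the intervals cover counting error only, and sharing was among the values that chose the members, so nothing is read from the comparison. Without SKI the shares were 66.7% with 5xA and 60.0% with WT, which turns their order round. Joining within 50 bases gave 70.0% with 5xA and 77.8% with WT, and joining within 100 bases gave 77.8% in both. Without SKI the members held 6 5xA and 5 WT regions, a ratio of 1.20, and with it a ratio of 1.89.

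Most genes of the pathway list held no region, which was also the case for most protein-coding genes. Of 67 TGF-beta and BMP genes, 12 held a region with 5xA and 8 with WT, a share of 17.9% and 11.9%, where 7.45% and 3.35% of all protein-coding genes did. The list holds the 7 members, and many genes of the background may not be expressed in these cells. Of the 60 genes that are not members, 8 held a region with 5xA (13.3%) and 3 with WT (5.0%), beside the same 7.45% and 3.35%. The list was chosen with earlier results of these data known, so nothing is read from these shares. By role, a gene was counted when either list held a region of it. These were 2 of 17 ligands, 3 of 13 receptors, 0 of 8 SMADs and 2 of 5 corepressors and cofactors. They were also 3 of 9 ligases, adaptors and membrane inhibitors, 1 of 8 extracellular regulators and 2 of 7 targets. The counts by role include the members, the groups are small, and the background shares above each refer to a single list. Nothing is therefore read from the counts by role, the 0 of 8 SMADs included. For SKI and 9 other genes of the 67 the strand was not in the tables used. SKI was taken as plus, and for the other 9 regions on both strands would have counted, but none was found.

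**Figure D5:**
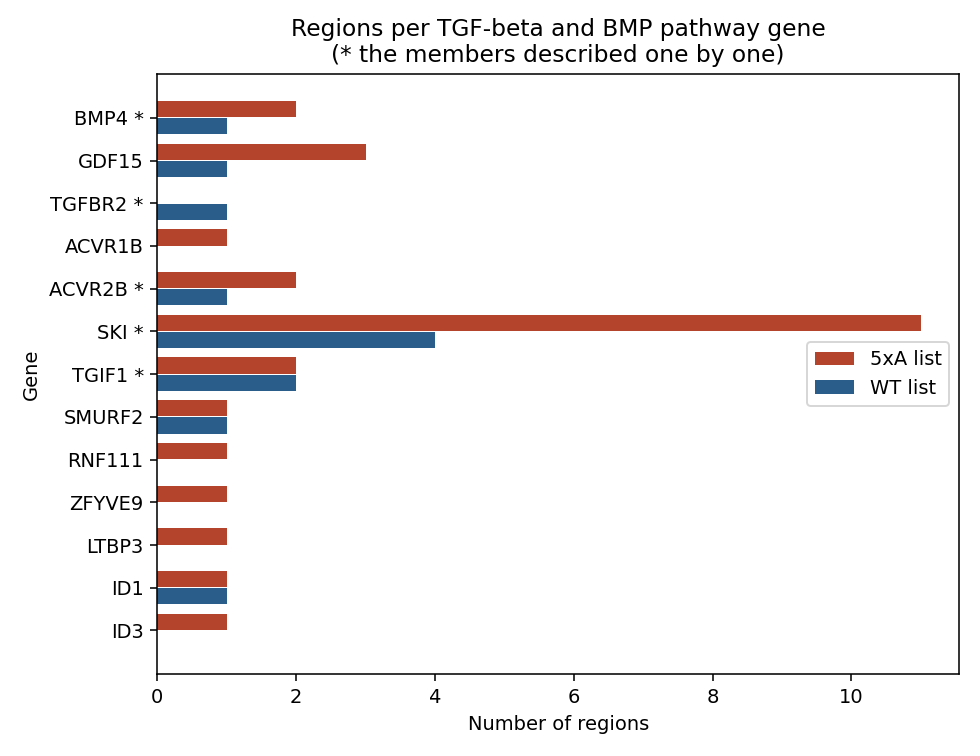
Number of regions with 5xA (red, upper bar) and WT (blue, lower bar) in each of the 13 pathway genes with a region, ordered by role from ligands at the top to targets at the bottom. SKI has 11 and 4, GDF15 has 3 and 1, TGIF1 has 2 and 2, and TGFBR2 is the gene with a WT region alone.

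Of the genes that are not members, GDF15, SMURF2 and ID1 were in both lists. GDF15, a stress-induced member of the ligand superfamily, held 3 regions with 5xA and 1 with WT. Its 5xA regions lay at 18386160 to 18386329, at 18388529 to 18388874 and at 18388931 to 18389085 on chromosome 19, and the last shared 152 bases with the WT region at 18388934 to 18389146. The first lay at the upstream end of a gene of a short span (18386158 to 18389176, plus strand), 2604 bases from the WT region. SMURF2, a ubiquitin ligase that works with SMAD7, held 1 region in each list, at 64543095 to 64543202 with 5xA and 64543094 to 64543197 with WT on the minus strand of chromosome 17. Their edges differed by 5 bases upstream and 1 base downstream. ID1, a classical target of BMP signalling, held 1 region in each list, 173 bases wide with 5xA and 167 with WT, and 161 of these bases were shared.

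The other 5 genes held 1 region each with 5xA and 0 with WT. ACVR1B, a type I activin receptor, had a region of 81 bases at 51996930 to 51997010 on chromosome 12. RNF111 (Arkadia), a ubiquitin ligase that removes SKI family corepressors, had 93 bases at 59095138 to 59095230 on chromosome 15, and ZFYVE9 (SARA), an adaptor for receptor SMADs, had 63 bases at 52346358 to 52346420 on chromosome 1. LTBP3, which binds latent TGF-beta in the matrix, had 123 bases at 65538875 to 65538997 on chromosome 11. ID3, a paralogue of ID1, had 218 bases at 23558189 to 23558406 on chromosome 1, where another annotated gene also lies. Their midpoints lay 108 bases (ACVR1B), 2235 bases (RNF111), 245 bases (ZFYVE9), 377 bases (LTBP3) and 371 bases (ID3) before the downstream gene end. Of the 13 pathway genes with a region, 7 thus had it with both forms of AGO2, 5 with 5xA alone and 1 with WT alone.

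Among the 7 pathway genes in both lists, SKI, BMP4, ACVR2B and GDF15 held more with 5xA, and TGIF1, SMURF2 and ID1 held as many in each list. Over all 600 protein-coding genes in both lists 299 (49.8%) held more with 5xA, so 4 of 7 is near the background, and SKI leaves them when regions within 100 bases are joined, with 4 in each list. The 67 genes held 27 regions with 5xA and 12 with WT, a ratio of 2.25, and the whole lists had a ratio of 2.45.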

How the data were processed

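The authors deposited 2 region lists with 6 columns, 1 for the FH-AGO2_5xA IP and 1 for the FH-AGO2_WT IP, and each is named in the labels for both IP samples of its genotype. The deposited scores are all 0 and were not used. Reads were handled with cutadapt 1.9.1 and TopHat2 on hg38, per the submitters' processing notes. How peaks were called and at which threshold, the rule for merging and the part played by inputs and knockout cells were not given in the labels. The other 8 samples were not analysed here.

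Regions were matched in Python 3.11.15 (pandas 2.3.3, numpy 2.4.6, scipy 1.17.1) and checked with bedtools 2.31.1 and on simulated data. Gene spans came from a RefSeq table of GRCh38.p14, which has the coordinates of hg38, and strands and sequences from RefSeq tables of the same build. The strand of SKI has no entry there and was taken from general knowledge. Strands were known for 15843 of 20037 protein-coding genes from the table, and elsewhere both strands counted. A region was shared when it met the other list by at least 1 base on its strand. A region that met several genes counted for each. No test was run, since each genotype has 1 list. The members, the pathway list and the markers were chosen with earlier results of these data known. All 7 members and each pathway gene with a region are named. The genes beside SKI were named by equal or next number of 5xA regions. The planned search for seed matches was not run, for want of a genome sequence. Joining within 20 and 100 bases, leaving out SKI and leaving out genes without a strand were added after seeing the data.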

Additional observations from a re-analysis of the deposited data

How the results depend on the processing

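Under 11 alternatives, 18 values gave 136 comparisons, of which 124 stayed within set limits. The limits were 1.5 times the reported count, or the exact 95% interval of the reported share or median. For shares the interval is wide, 23.0% to 72.2% with 5xA and 40.0% to 97.2% with WT. The 5xA share thus counted as kept at 70.0% after joining within 50 bases, and the WT share at 60.0% without SKI. The tally of 124 is therefore no measure of how stable the shares are. Joining within 50 bases left 10 member regions with 5xA, against 17 as deposited, and gave them a median width of 239 bases. Joining within 100 bases left 9, of which 77.8% met a WT region. SKI held 7, 5 and 4 5xA regions after joining within 20, 50 and 100 bases. Without regions under 75 bases, 100% of the members' WT regions were shared. Without SKI the members held 6 regions with 5xA and 5 with WT, of which 4 and 3 were shared. Ignoring strand, using midpoints, leaving out regions in more than 1 gene and both other rules for sharing kept every value listed within those limits. No member span held a region on the other strand, and each member region lay wholly inside its own gene and met no other. The first 3 of these settings therefore could not move the members' values, and their comparisons among the 124 say nothing about how stable those values are. The numbers of members and of pathway genes with a region stayed within 1.5 times in each alternative run for them. Joining cannot leave a gene without a region, and leaving out SKI takes 1 member away by design. Leaving out genes without a strand took SKI out of the pathway count in the same way. These settings therefore say nothing about how stable the numbers are. Leaving out regions under 75 bases could lower them. Members with a region then went from 5 to 4 with WT and stayed at 4 with 5xA. Pathway genes went from 8 to 7 with WT and from 12 to 11 with 5xA. No paired analysis was possible because both replicates of a genotype share 1 list. Read depth is unknown, so a member without a region may have been missed.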
